A study of Rattus norvegicus with 183 samples.

Results

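The machinery that releases transmitter from synaptic vesicles was followed as 77 genes of the 38354 in the deposited table of the posterior ventral tegmental area (pVTA), a midbrain region that holds dopamine neurons. The genes were chosen by name. They are the synaptotagmins (without Syt2), syntaxins, syntaxin-binding proteins, VAMPs, complexins, synaptogyrins and RIMs, the synapsins Syn1 to Syn3, the SV2 genes Sv2a to Sv2c, Snap23, Snap25, Snap29, Snap47, Snap91, Syp, and the Rab3 and Unc13 genes. The question was which of them follow the dopamine genes from library to library, and whether they do so in both of the identifier formats that divide the libraries.

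Release starts when vesicles are docked and primed at the active zone by RIM and Munc13 (Unc13) proteins. The vesicle SNARE, a VAMP, zips up with a syntaxin and a SNAP-25 family member on the plasma membrane, complexins clamp this assembly, and a synaptotagmin that binds calcium triggers fusion. Dopamine neurons release from axon terminals and also from their cell bodies and dendrites, which lie in this region. RNA in the dissected tissue is largely that of cells whose bodies lie there, so terminals that arrive from elsewhere add protein but little mRNA. Several families also hold members that act in other trafficking steps of every cell, such as the endosomal Stx7 and the Golgi syntaxins.

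PolyA RNA was sequenced from outbred heterogeneous stock rats, with no treatment in the labels, and 152 of the 183 described samples have a column of values. The other 31 are labelled as removed. Libraries with a hexadecimal identifier number 88 and those with a decimal one 63, and 1 has another form. All are labelled pVTA. In 11 libraries, 1 hexadecimal and 10 decimal, the dopamine genes went against that label. Th, the rate-limiting enzyme of dopamine synthesis, was at most 3.47 CPM (counts per 1e6 counts of the library) there and at least 577 CPM in the others, and the 10 cortical or hippocampal marker genes summed to 6716 to 7470 CPM there. These 11 and the library of another form were left out, which leaves 87 hexadecimal and 53 decimal libraries. Their totals were 15.2 to 54.4 M estimated counts (1e6) in hexadecimal and 17.7 to 57.2 M in decimal libraries, with medians of 22.9 M and 27.5 M. Among the libraries kept, 4 hexadecimal and 2 decimal ones still held over 100 CPM of the cortical transporter gene Slc17a7, and 12 and 4 of them were relabelled or recovered from an unknown label. The 10 cortical or hippocampal markers summed to 145 to 1460 CPM in the hexadecimal and 156 to 947 CPM in the decimal libraries kept, with Neurod2 and Tbr1 at a median under 1 CPM. No label ties a library to a cohort, a day or a litter, so p-values measure the spread between libraries, and whatever else differs between the formats cannot be told apart from them.

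Dopamine neuron content was summarised as a score, the mean z-score of 10 genes (Th, Slc6a3, Slc18a2, Ddc, En1, Pitx3, Nr4a2, Slc10a4, Dlk1 and Chrna6) divided by its SD over the 140 libraries. The score ran between -3.09 and 1.84 in hexadecimal libraries and between -2.99 and 1.01 in decimal libraries. Th itself was 577, 1935 and 3934 CPM in the lowest, median and highest hexadecimal library, against 581, 1653 and 2293 CPM in decimal libraries. The dopamine transporter gene Slc6a3 spread more widely in one format than in the other, with 38.2, 780 and 1491 CPM in hexadecimal libraries and 246, 774 and 1222 CPM in decimal libraries. A slope is the change of log2(CPM + 1) per SD of this score, fitted with limma over all 15547 genes with a mean of at least 1 on that scale, and a slope is called where its Benjamini-Hochberg adjusted p is below 0.05. In dissected tissue, fewer cells of a type and less RNA per cell cannot be told apart, so a slope says only that a gene and the dopamine genes moved together.

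Of the 77 genes, 71 had a mean above that minimum. The other 6 were Syt8, Cplx4, Stx11, Stx19, Vamp9 and Syngr4, none of which exceeded 1.69 CPM in any library kept. In hexadecimal libraries 22 of the 71 rose with the score and 13 fell, where 13.0% of all genes rose and 10.3% fell. In decimal libraries 21 rose and 4 fell, where 10.5% of all genes rose and 6.20% fell. In both formats 17 members rose (23.9%), against 7.30% of all genes, and 3 fell (4.23%), against 2.92%. No member was called in opposite directions. The share that rose was thus above that of all genes in each format, the share that fell was above it in hexadecimal libraries only, and the difference between formats in these shares was not tested. The median slope of the 71 was small, at 0.019 in hexadecimal and 0.014 in decimal libraries, beside 0.0072 and -0.0026 for all genes, with members on both sides of 0. The median absolute slope of the members was 0.068 in hexadecimal and 0.044 in decimal libraries, against 0.041 and 0.035 for all genes. The members did not move as one block. The median Pearson r over their 2485 pairs was 0.0699 in hexadecimal and 0.0626 in decimal libraries. These medians were close to the 0.0503 and 0.0633 over all pairs of genes. Of the member pairs, 14.7% and 13.4% exceeded 0.5 and 10.4% and 7.16% lay under -0.5. Such shares were not computed over all pairs of genes, so they are not shown to be particular to the members. Some members rose with the score and others fell within the same libraries, as was so among all genes.

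**Figure D1:**
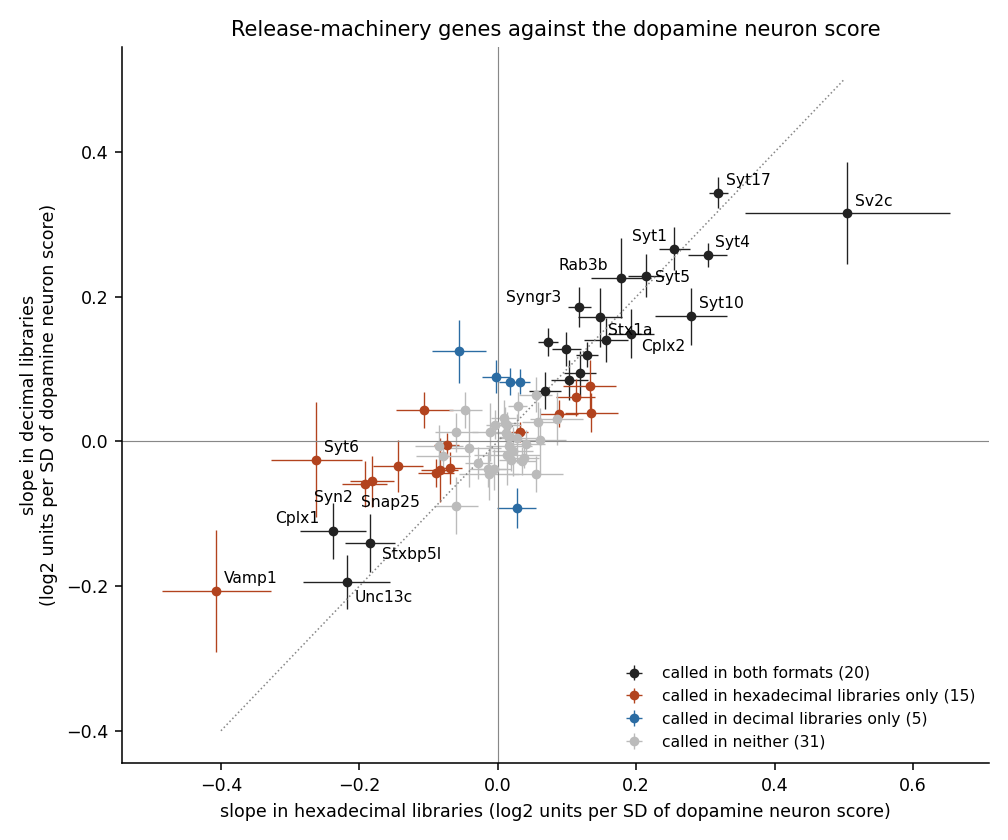
Slope of each of the 71 genes on the dopamine neuron score in hexadecimal libraries (horizontal) and in decimal libraries (vertical), in log2 units per SD, with bars of 1 standard error and a dotted line of equal slopes. The 17 genes called as rising in both formats lie at the upper right with Syt17 and Sv2c farthest out, the 3 called as falling in both (Cplx1, Stxbp5l, Unc13c) lie at the lower left, and Vamp1 has the lowest slope in each format but is called in hexadecimal libraries only.

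The synaptotagmins, not all of which bind calcium, held the closest followers of the dopamine genes. Of 15 synaptotagmins tested, 8 rose and 1 fell in hexadecimal libraries and 7 rose and none fell in decimal libraries. Syt17, an atypical synaptotagmin that does not bind calcium, was 45.4, 116 and 169 CPM in the lowest, median and highest hexadecimal library, against 46.7, 117 and 164 CPM in decimal libraries, so the ranges nearly coincide. Its slope was 0.32 ± 0.014 (SE, n = 87) in hexadecimal libraries (limma adjusted p = 5.12e-36) and 0.34 ± 0.021 (n = 53) in decimal libraries (limma adjusted p = 1.85e-19), which is 1.25-fold and 1.27-fold per SD. Its standard error was among the smallest relative to the slope, and the points in the plot of levels against the score lie along 1 line for both formats.

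Syt4, a synaptotagmin found on dense-core and secretory vesicles and used in somatodendritic release in mouse, was 184, 347 and 573 CPM in hexadecimal libraries, against 220, 381 and 508 CPM in decimal libraries. Its slope was 0.30 ± 0.028 in hexadecimal (limma adjusted p = 1.98e-15) and 0.26 ± 0.016 in decimal libraries (limma adjusted p = 2.69e-19). Syt1, the fast calcium sensor of synaptic release and in mouse the main sensor for axonal dopamine release, was 514, 1111 and 1550 CPM in hexadecimal libraries, against 475, 1147 and 1492 CPM in decimal libraries. Its slope was 0.26 ± 0.022 (limma adjusted p = 7.93e-17) and 0.27 ± 0.029 (limma adjusted p = 2.37e-10) in hexadecimal and decimal libraries. These 3 synaptotagmins thus rose by nearly the same amount per SD in both formats.

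Among the other synaptotagmins, Syt5 rose by 0.21 ± 0.026 in hexadecimal and 0.23 ± 0.030 in decimal libraries. Syt10, a calcium sensor for secretion of growth factor in mouse olfactory neurons, rose by 0.28 ± 0.052 and 0.17 ± 0.039. Its levels were low, at 2.26 to 13.7 CPM in hexadecimal and 2.91 to 11.7 CPM in decimal libraries. With Th, En1 or Pitx3 alone in place of the score, its hexadecimal slope was 0.047, 0.059 and 0.069. None of these passed (limma adjusted p = 0.53, 0.379 and 0.366), and Syt10 rose with 7 of the 10 dopamine genes used alone there. Syt13 rose by 0.073 ± 0.015 and 0.14 ± 0.019, and Syt16 by 0.10 ± 0.026 and 0.085 ± 0.028, both among the synaptotagmins that lack calcium binding. Syt14 was called in hexadecimal libraries only (0.11 ± 0.029, against 0.061 ± 0.026 in decimal). Syt6 was the exception that fell in hexadecimal libraries, with a slope of -0.26 ± 0.066 (limma adjusted p = 0.00146), while its slope in decimal libraries was -0.025 ± 0.079 (limma adjusted p = 0.879). Syt7, the slow, high-affinity sensor that has been tied to somatodendritic dopamine release in mouse, did not pass in either format, with slopes of 0.011 ± 0.020 in hexadecimal and 0.025 ± 0.022 in decimal libraries. Syt3, Syt9, Syt11, Syt12 and Syt15 did not pass either.

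**Figure D2:**
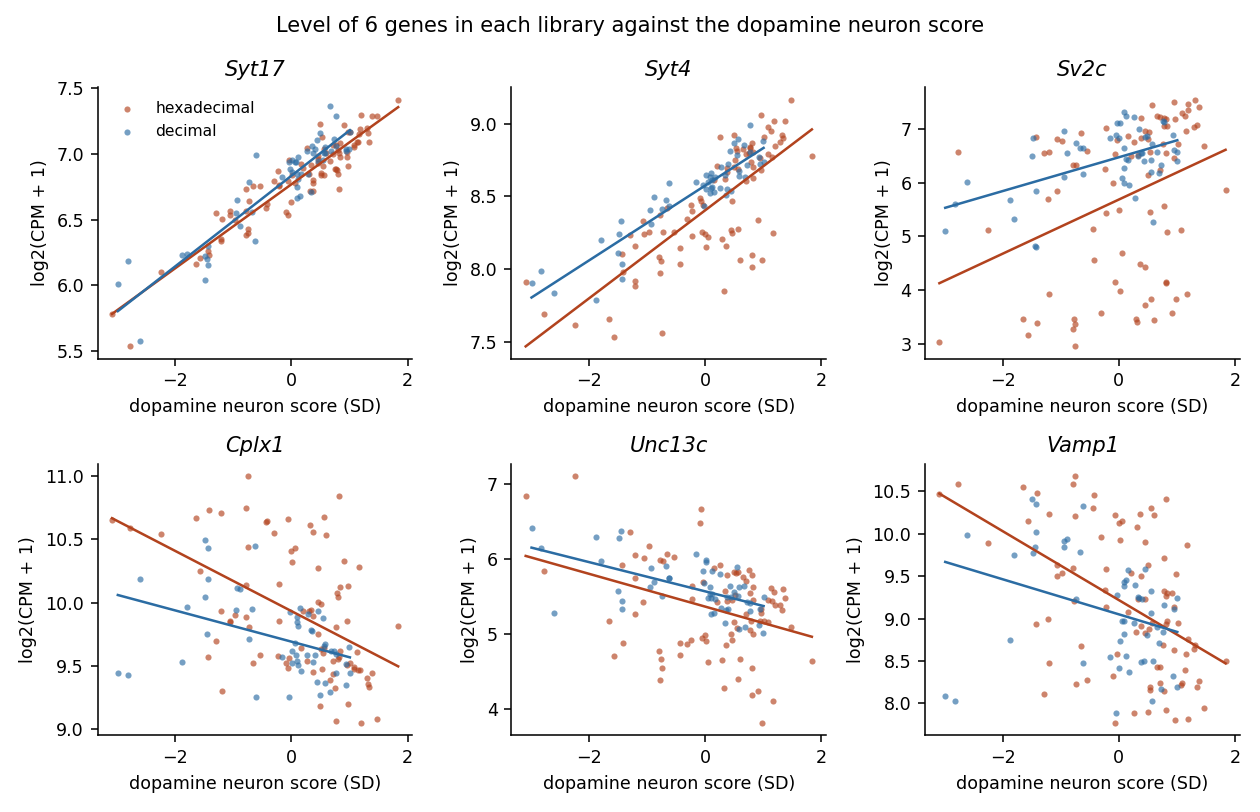
Level of 6 genes, as log2(CPM + 1), in each of 87 hexadecimal and 53 decimal libraries against the dopamine neuron score in SD, with the fitted line of each format. Syt17 and Syt4 rise along narrow bands, Sv2c splits into a high and a low set of hexadecimal libraries, and Cplx1, Unc13c and Vamp1 are lower where the score is higher, with wide scatter.

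The SNARE genes divided between those that rose and those that fell. Stx1a, a syntaxin of synaptic release, rose by 0.15 ± 0.032 in hexadecimal and 0.17 ± 0.041 in decimal libraries, with 11.6, 30.6 and 82.9 CPM in the lowest, median and highest hexadecimal library, against 14.1, 27.1 and 54.4 CPM in decimal libraries. With the score, the 2 synaptobrevins parted in hexadecimal libraries. Vamp2, the main vesicle SNARE of forebrain synapses, rose by 0.10 ± 0.020 in hexadecimal and 0.13 ± 0.024 in decimal libraries, with 512, 921 and 1267 CPM in hexadecimal against 558, 862 and 1141 CPM in decimal libraries. Vamp1, the vesicle SNARE of fast hindbrain, spinal and motor synapses, had 217, 561 and 1639 CPM in hexadecimal and 237, 555 and 1356 CPM in decimal libraries. Its slope of -0.41 ± 0.079 in hexadecimal libraries (limma adjusted p = 3.35e-05) was the most negative of all members, and in decimal libraries it was -0.21 ± 0.084 (limma adjusted p = 0.084). With Th, En1 or Pitx3 alone in place of the score, the hexadecimal slope of Vamp1 was -0.054, -0.049 and -0.14. None of these passed (limma adjusted p = 0.637, 0.639 and 0.203). With Slc10a4 alone it was -0.24 and did not pass (limma adjusted p = 0.0595). Vamp1 fell with 6 of the dopamine genes used alone in hexadecimal libraries and with 2 in decimal libraries.

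Snap25, the plasma membrane SNARE of most neurons, fell by 0.18 ± 0.032 in hexadecimal libraries and had a slope of -0.055 ± 0.035 in decimal libraries that did not pass. Among its relatives, Snap47 fell and Snap29 rose in hexadecimal libraries only, and Snap23, the form of non-neuronal cells, fell in decimal libraries only (0.027 ± 0.029 in hexadecimal against -0.092 ± 0.027). Snap91, an adaptor of clathrin-mediated vesicle recycling that shares only the name, had slopes of -0.0028 ± 0.020 in hexadecimal and 0.089 ± 0.023 in decimal libraries, and only the decimal slope passed. Of 13 syntaxins tested, 4 rose and 3 fell in hexadecimal libraries and 3 rose and none fell in decimal libraries. Those that rose in both were Stx1a, the endosomal Stx7 (0.13 ± 0.016 in hexadecimal, 0.12 ± 0.017 in decimal libraries) and Stx3 (0.12 ± 0.023 and 0.094 ± 0.031), the syntaxin of ribbon synapses and of exocytosis in dendrites. Of 7 VAMPs tested, Vamp2 was the only one that rose and Vamp1 the only one that fell, and Vamp3, Vamp4, Vamp5, Vamp7 and Vamp8 passed in neither format.

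The proteins that prime and clamp the SNAREs showed the same kind of division. Cplx2 rose by 0.19 ± 0.033 in hexadecimal (limma adjusted p = 2.43e-06) and 0.15 ± 0.034 in decimal libraries (limma adjusted p = 0.000951). Cplx1, in rodents the complexin of many inhibitory neurons, fell by 0.24 ± 0.047 in hexadecimal (limma adjusted p = 4.65e-05) and 0.12 ± 0.038 in decimal libraries (limma adjusted p = 0.0186). The fall of Cplx1 was lost in both formats with a score of large projection neuron genes in the fit (-0.021, limma adjusted p = 0.838 in hexadecimal; -0.043, limma adjusted p = 0.189 in decimal libraries). With Th alone in place of the score the hexadecimal slope of Cplx1 was -0.0012 (limma adjusted p = 0.987), and with median-of-ratios size factors its decimal call was lost (limma adjusted p = 0.144). The levels of the pair overlapped, with Cplx2 at 594, 1149 and 1582 CPM in hexadecimal and 653, 1133 and 1568 CPM in decimal libraries, and Cplx1 at 528, 917 and 2046 CPM in hexadecimal and 608, 800 and 1445 CPM in decimal libraries. Among the Munc13 genes, Unc13a, the main priming factor of excitatory synapses, rose by 0.068 ± 0.024 and 0.070 ± 0.026, close to the threshold in each format. Unc13a kept its call under 14 of 26 alternatives in hexadecimal and 13 of 26 in decimal libraries. With the score of oxidative phosphorylation genes in the fit its slopes were 0.0076 (limma adjusted p = 0.747) and 0.039 (limma adjusted p = 0.235). Unc13c, in rodents best known from cerebellar granule cells, fell by 0.22 ± 0.063 in hexadecimal and 0.19 ± 0.037 in decimal libraries, with 13.1, 41.0 and 136 CPM in hexadecimal against 31.4, 45.5 and 83.8 CPM in decimal libraries. Without the libraries over 100 CPM of Slc17a7 its hexadecimal slope was -0.12 and did not pass (limma adjusted p = 0.2). In the same 87 libraries Unc13c rose with 2 dopamine genes used alone, by 0.21 per SD of Slc6a3 (limma adjusted p = 0.000195) and by 0.13 per SD of Chrna6 (limma adjusted p = 0.032), and it fell with 6 of the other 8. Rims3, a short RIM, rose by 0.16 ± 0.032 in hexadecimal and 0.14 ± 0.031 in decimal libraries, whereas Rims1 and Rims2, the large scaffolds that tether vesicles and calcium channels, had slopes within 0.033 of 0 and did not pass.

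Of the 7 syntaxin-binding genes the only one called was Stxbp5l, a relative of tomosyn, which holds back SNARE assembly. It fell by 0.18 ± 0.036 in hexadecimal and 0.14 ± 0.040 in decimal libraries. Rab3b, a vesicle GTPase enriched in dopamine neurons of the rodent midbrain, rose by 0.18 ± 0.043 in hexadecimal (limma adjusted p = 0.00103) and 0.23 ± 0.055 in decimal libraries (limma adjusted p = 0.00212), with 13.6, 44.1 and 69.7 CPM in hexadecimal against 14.9, 40.8 and 58.6 CPM in decimal libraries. Without the 2 libraries farthest from the score median in each format, the hexadecimal slope of Rab3b was 0.093 and did not pass (limma adjusted p = 0.151). Rab3b kept its call under 20 of 26 alternatives in hexadecimal and 24 of 26 in decimal libraries. Rab3c rose in hexadecimal libraries only, and Rab3a and Rab3d passed in neither. Of the 3 synapsins, which tether vesicles in the reserve pool, all fell in hexadecimal libraries (Syn1 by 0.11, Syn2 by 0.19 and Syn3 by 0.084), and none passed in decimal libraries, where Syn1 had a slope of 0.044 and Syn2 and Syn3 had slopes of -0.059 and -0.039.

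Among the vesicle membrane proteins, Syngr3, a synaptogyrin that interacts with the dopamine transporter protein, rose by 0.12 ± 0.017 in hexadecimal (limma adjusted p = 3.64e-08) and 0.19 ± 0.028 in decimal libraries (limma adjusted p = 6.38e-07). Sv2a, Sv2b and Syp had called slopes of 0.083, 0.12 and 0.083 in decimal libraries and did not pass in hexadecimal ones, where Sv2b had a slope of -0.056 ± 0.039. Sv2c, the SV2 form concentrated in the basal ganglia and midbrain dopamine neurons, had the largest slope of all members in hexadecimal libraries, 0.51 ± 0.15 (limma adjusted p = 0.00711), and the second in decimal libraries, 0.32 ± 0.070 (limma adjusted p = 0.000758). Its error is the widest of the 71 in hexadecimal libraries. The call was kept under 16 of 26 alternatives in hexadecimal and 26 of 26 in decimal libraries. With median-of-ratios size factors the hexadecimal slope was 0.36 and did not pass (limma adjusted p = 0.0848). With cortical, GABA and oligodendrocyte scores in the fit it was 0.30 and did not pass (limma adjusted p = 0.243). Sv2c was 6.72, 87.2 and 187 CPM in the lowest, median and highest hexadecimal library, against 26.9, 92.5 and 160 CPM in decimal libraries, and 26 of the 87 hexadecimal libraries lay below the lowest decimal one. Low hexadecimal libraries occurred at nearly every value of the score.

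The slopes of the formats were then tested against each other. None of the 71 differences passed in limma (background 0% higher and 0% lower of all genes after adjustment). At an unadjusted p below 0.05, 3 members had a higher slope in hexadecimal libraries and 13 a lower one, where 3.58% of all genes were higher and 4.30% lower. The 3 were Snap23, Stx6 and Stx17. The 13 included Sv2b, Snap91, Syn1, Syn2, Syt13, Snap25, Sv2a, Snap47, Syt6, Syp and Syngr3, so they hold the general vesicle proteins Syp and Sv2a and the SNARE Snap25. The smallest unadjusted p was that of Sv2b (-0.18 ± 0.060, unadjusted p = 0.00329, limma adjusted p = 0.483). A slope called in 1 format and not in the other is therefore not shown to differ.

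Because the score averages 10 genes, each was also used alone. In hexadecimal libraries the answer depended on the gene. With Th alone 17 members rose and 22 fell (23.9% and 31.0%), where 15.6% of all genes rose and 34.0% fell. With Slc6a3 alone 37 rose and 14 fell (52.1% and 19.7%), where 49.8% of all genes rose and 23.9% fell, so these shares lie near those of all genes. In decimal libraries 20 rose and 4 fell with Th (28.2% and 5.63%), where 11.0% and 7.03% of all genes did. With Slc6a3 25 rose and 2 fell (35.2% and 2.82%), where 12.6% and 5.01% of all genes did. In hexadecimal libraries 23 members were called as rising with some dopamine genes and as falling with others, and in decimal libraries none was. Of all genes, 42.3% were so called in hexadecimal and 0% in decimal libraries, so the members do not stand apart in this. The genes with fewer members rising than falling in hexadecimal libraries were Th and the transcription factor genes En1 and Pitx3. With En1 alone 23.9% of members rose and 33.8% fell, where 16.0% of all genes rose and 36.6% fell. With Pitx3 alone 19.7% of members rose and 23.9% fell, where 12.6% of all genes rose and 25.1% fell, so more genes fell than rose over the whole table too.

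**Figure D3:**
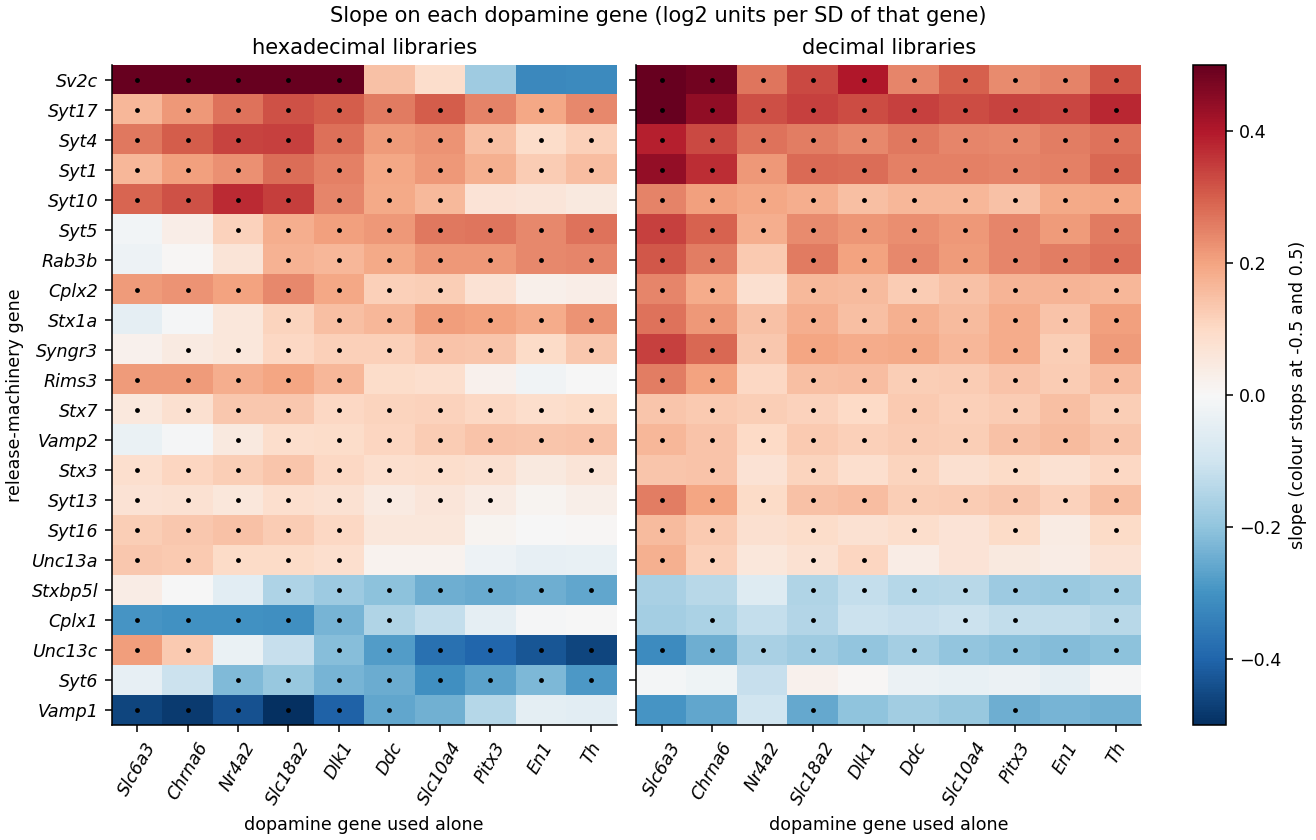
Slope of 22 genes (rows) on each of the 10 dopamine genes used alone (columns), in hexadecimal libraries (left) and decimal libraries (right), in log2 units per SD of the dopamine gene, with a dot where the limma adjusted p is below 0.05. Syt17, Syt4, Syt1 and Stx7 are red with a dot in all 20 cells, while in hexadecimal libraries Sv2c is red with Slc6a3 (1.02) and blue without a dot with Th (-0.32).

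Syt1, Syt4, Syt17 and Stx7 rose with each of the 10 dopamine genes in both formats, 4 of 71 members against 1.22% of all genes. In hexadecimal libraries the slope of Syt17 on single genes was between 0.17 (Slc6a3) and 0.32 (Slc18a2), and in decimal libraries between 0.32 (Nr4a2) and 0.54 (Slc6a3). Syngr3 rose with 9 of the 10 in hexadecimal and all 10 in decimal libraries, and Vamp2, Syt5 and Syt13 with 8 and 10. Sv2c rose with 5 in hexadecimal libraries and all 10 in decimal libraries. Its hexadecimal slopes were 1.02 on Slc6a3, 0.98 on Chrna6, 0.79 on Nr4a2, -0.32 on Th and -0.32 on En1, the last 2 not passing (limma adjusted p = 0.0784 and 0.0516). In decimal libraries its slope was 0.69 on Slc6a3 and 0.31 on Th. Stx1a, Vamp2, Rab3b and Syt5 had the opposite order in hexadecimal libraries, with slopes of 0.22, 0.14, 0.25 and 0.27 on Th and of -0.045, -0.034, -0.027 and -0.015 on Slc6a3, of which only those on Th passed.

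The sequence around a listed start of 3 of these 4 genes is in the RefSeq promoter table (GRCr8, 250 bases before to 50 after that start). They are shown because these are the members that moved with every dopamine gene, in lower case with each GC box (GGGCGG, either strand) in capitals.
Stx7: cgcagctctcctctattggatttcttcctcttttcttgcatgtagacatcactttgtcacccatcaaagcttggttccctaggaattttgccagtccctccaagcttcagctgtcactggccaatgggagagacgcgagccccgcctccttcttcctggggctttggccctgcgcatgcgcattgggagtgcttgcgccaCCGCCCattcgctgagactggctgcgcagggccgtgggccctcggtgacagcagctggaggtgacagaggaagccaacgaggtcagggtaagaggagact
Syt1: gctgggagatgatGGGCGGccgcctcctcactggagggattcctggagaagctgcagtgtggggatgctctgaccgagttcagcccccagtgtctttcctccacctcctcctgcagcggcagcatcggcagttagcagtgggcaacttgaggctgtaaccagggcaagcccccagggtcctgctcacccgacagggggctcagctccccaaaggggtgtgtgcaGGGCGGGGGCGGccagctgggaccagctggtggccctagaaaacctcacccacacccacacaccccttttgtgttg
Syt4: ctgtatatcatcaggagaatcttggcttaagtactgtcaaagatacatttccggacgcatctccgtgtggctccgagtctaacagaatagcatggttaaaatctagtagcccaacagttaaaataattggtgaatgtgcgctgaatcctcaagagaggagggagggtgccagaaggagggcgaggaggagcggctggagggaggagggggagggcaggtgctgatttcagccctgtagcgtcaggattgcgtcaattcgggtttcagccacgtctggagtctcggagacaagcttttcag
They lie at chr1:23056416-23056715 on the minus strand, chr7:46244164-46244463 on the minus strand and chr18:23320814-23321113 on the minus strand. The annotated span of the Syt1 gene begins, on its minus strand, at 46244460. Almost all of the Syt1 window thus lies inside the annotated gene and not before it. A set of motifs was looked for on both strands: AAAGGTCA (bound by Nr4a2), TAATCC (Pitx factors), TAATTA (the core of En1 and other homeodomains), TGACGTCA (the cAMP response element) and GGGCGG. Stx7 holds 1 GC box, Syt1 holds 3 and Syt4 none, and the other motifs are not in these windows. A GC box was in 52 of the 76 members with a promoter (68.4%) and in 33.1% of all 33469 promoters. The set of all promoters was not limited to protein-coding genes or to genes that passed the filter, so the shares come from unlike sets. Among the 16 members with a promoter that rose in both formats, 11 held one. TAATCC was in 4 of the 76 (5.26%, against 7.17% of all promoters), TAATTA in 1 (1.32%, against 5.36%), TGACGTCA in 2 (2.63%, against 1.83%) and AAAGGTCA in 0, against 1.43% of all promoters. These are matches of letters and not sites of binding.

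Other groups of genes moved with some members. The summed level of 71 nuclear genes of oxidative phosphorylation, a list added after the data were seen, ran between 8466 and 16742 CPM in hexadecimal and between 8835 and 16136 CPM in decimal libraries. Per SD of its score, Sv2c changed by -1.16 ± 0.061 (SE) in hexadecimal and -0.48 ± 0.094 in decimal libraries, and Slc6a3 by -0.72 ± 0.064 and -0.22 ± 0.099. Th changed by 0.081 ± 0.049 and -0.18 ± 0.089 on the same scale, and Syt17 by -0.12 ± 0.030 and -0.18 ± 0.067. With that score in the fit, the dopamine slope of Sv2c was 0.076 ± 0.072 in hexadecimal libraries (limma adjusted p = 0.446) and 0.23 ± 0.064 in decimal libraries (limma adjusted p = 0.00719), while that of Syt17 was 0.31 ± 0.014 and 0.34 ± 0.022. Without Slc6a3 in the dopamine score, Sv2c had a hexadecimal slope of 0.36 that did not pass (limma adjusted p = 0.0933). The part of the oxidative phosphorylation genes in the slope of Sv2c was not otherwise tested.

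**Figure D4:**
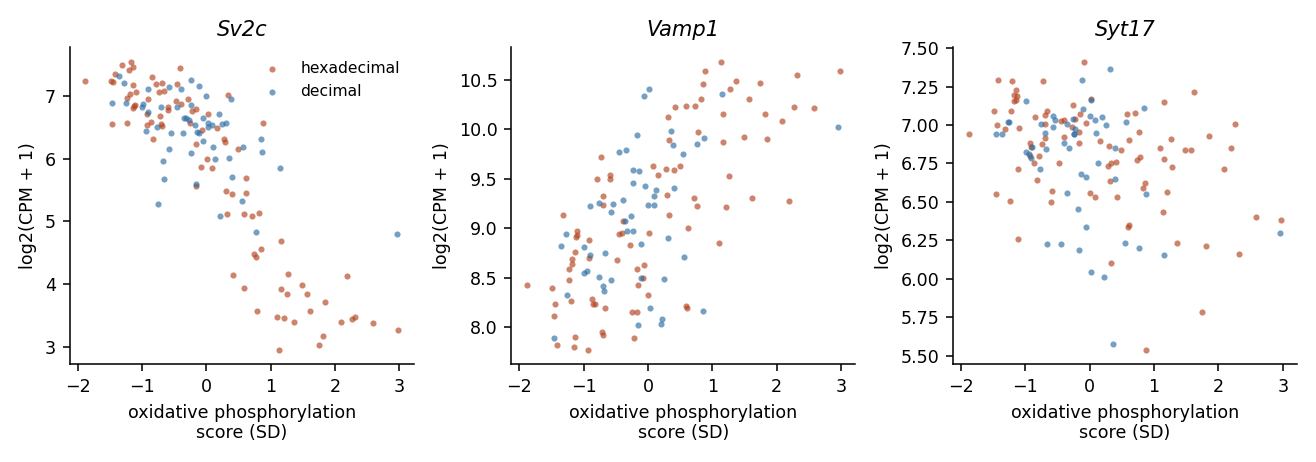
Level of Sv2c, Vamp1 and Syt17, as log2(CPM + 1), in each hexadecimal and decimal library against the score of 71 nuclear oxidative phosphorylation genes in SD. Sv2c runs from about its highest to its lowest level along this axis in hexadecimal libraries, Vamp1 is higher where the score is higher, and Syt17 shows a shallow slope.

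Vamp1 moved with another set. The 8 marker genes of large fast-firing projection neurons (Nefh, Nefm, Scn4b, Spp1, Kcnc1, Kcna1, Cabp7 and Syt2) summed to 694 to 7671 CPM in hexadecimal and 889 to 10078 CPM in decimal libraries, and all 8 were detected. With their score in the fit, Vamp1 changed by 0.74 ± 0.056 per SD of it in hexadecimal and 0.63 ± 0.032 in decimal libraries, and its dopamine slope was 0.049 ± 0.057 (limma adjusted p = 0.659) and -0.0064 ± 0.031 (limma adjusted p = 0.908). The dopamine slope of Syt17 in the same fits was 0.29 ± 0.016 and 0.31 ± 0.019, and that of Syt4 was 0.24 ± 0.034 and 0.25 ± 0.017. Of the 22 called hexadecimal slopes that meet the naming rule, 12 were lost in this fit, and of the 20 decimal ones 4 were. The called fall of Vamp1 in hexadecimal libraries was among them. Cplx1, Stxbp5l, Stx3 and Syt16 lost their call in both formats, and Sv2c, Cplx2, Rims3, Rab3b, Vamp2, Unc13a and Syt13 lost theirs in hexadecimal libraries. Cplx1 changed by 0.35 ± 0.044 per SD of the projection neuron score in hexadecimal and 0.25 ± 0.024 in decimal libraries, the same direction as Vamp1. Cplx2 changed the other way, by -0.21 ± 0.034 and -0.20 ± 0.025. The share of all genes called in this fit was 16.0% in hexadecimal and 19.8% in decimal libraries. Without the projection neuron score it was 23.3% and 16.7%, so fewer hexadecimal slopes were called over the whole table too.

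Levels were compared between the formats with hexadecimal minus decimal as the difference. Of the 71, 13 were higher and 17 lower in hexadecimal libraries, where 14.3% of all genes were higher and 23.7% lower, so the members do not stand apart. With the log2 library total in the fit the counts were 4 and 10, where 5.65% of all genes were higher and 12.0% lower. The largest difference was that of Sv2c, -0.66 ± 0.21 (limma adjusted p = 0.00818), 0.633-fold, although its medians of 87.2 CPM in hexadecimal and 92.5 CPM in decimal libraries nearly meet. With the library total in the fit this difference was -0.50 and did not pass (limma adjusted p = 0.104). The difference of Unc13c was -0.27 ± 0.092, and with the library total in the fit it was -0.23 and did not pass (limma adjusted p = 0.099). Stxbp5l (-0.21 ± 0.062), Syt12 (-0.20 ± 0.045), a synaptotagmin that does not bind calcium, and Stx4 (-0.19 ± 0.038), a plasma membrane syntaxin of many cell types, were also lower. Syngr2, the synaptogyrin of non-neuronal cells, was higher by 0.25 ± 0.053 (limma adjusted p = 0.000159), with 22.3, 33.0 and 67.5 CPM in hexadecimal against 23.1, 30.2 and 39.0 CPM in decimal libraries. The ranges of the formats overlapped for each of these genes, and the dopamine leaders Syt17, Syt4, Syt1 and Stx7 did not pass, with differences of 0.046, -0.080, 0.024 and 0.0051.

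**Figure D5:**
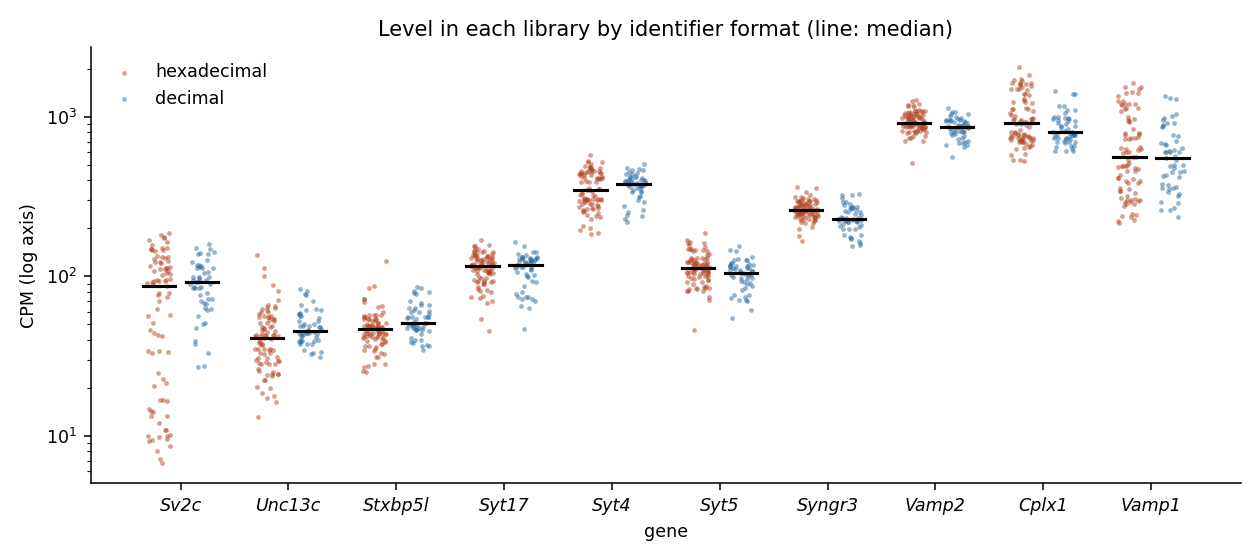
Level in CPM (log axis) of 10 genes in each of 87 hexadecimal (left of each pair) and 53 decimal libraries (right), with a line at the median. The formats overlap for every gene, and hexadecimal libraries reach far lower for Sv2c, down to 6.72 CPM against 26.9 CPM in decimal libraries.

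The genes most like the 3 members with the largest mean slope were ranked over all tested genes by Pearson r across the 140 libraries after centring within each format. Such libraries share composition and depth, so the ranks describe likeness only. For Sv2c they were Pgap1 (0.971), Cds2 (0.965), St8sia3 (0.965), Grik3 (0.964) and Tmem178b (0.960), none of them a dopamine score gene. For Syt17 they were Cpne7 (0.935), Slc18a2 (0.932), Fam167a (0.920), Gcnt2 (0.901) and Tmem255a (0.900), and Slc18a2 is the vesicular monoamine transporter gene, a member of the score. For Syt4 they were Erc2 (0.929), Tmem255a (0.918), Sdc2 (0.912), Acsl4 (0.906) and Gfra1 (0.906), of which Erc2 encodes an active zone protein that binds RIM and Gfra1 a receptor for the survival factor GDNF.

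A wider list of 57 vesicle cycle and active zone genes outside the 77 was read in the same fits, of which 56 were tested. In hexadecimal libraries 17 rose and 13 fell (beside 13.0% and 10.3% of all genes), and in decimal libraries 16 rose and 2 fell (beside 10.5% and 6.20%). No slope difference between the formats passed for them, as for all genes (0%). Among the largest rises were those of Cadps2, a priming factor for dense-core vesicles, by 0.36 ± 0.028 in hexadecimal and 0.33 ± 0.032 in decimal libraries, and of Erc2 by 0.33 ± 0.033 and 0.30 ± 0.022. The largest falls in hexadecimal libraries were those of Nsf, the ATPase that takes used SNARE complexes apart (-0.26 ± 0.033), Sh3gl2, an endophilin of vesicle recycling (-0.21 ± 0.034), and Napa, whose protein brings NSF to the SNAREs (-0.15 ± 0.037). In decimal libraries the slope of Nsf was -0.086 ± 0.036 and did not pass, Sh3gl2 fell by 0.11 ± 0.037, and Napa had a slope of 0.0055 ± 0.018.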

How the data were processed

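PolyA RNA of the posterior ventral tegmental area was quantified by the submitters with kallisto 0.48, per the submitters' processing notes, and no source used here names a genome build. The authors deposited 1 table of log2 values by gene and library, read as log2(estimated count + 1) from the values themselves: 0 stays 0, totals differ between libraries, and undoing the log gives numbers under 100 of which 55.7% are whole to within 0.001. For all 77 genes the position in the table coincides with a gene end in RefSeq (GRCr8). No 2 libraries held identical values (highest Pearson r 0.989). Values were back-transformed, divided by the library total and multiplied by 1e6 (CPM), and log2(CPM + 1) was used, so changes of low genes are understated and levels of different genes are not comparable, since CPM is not divided by length. At the smallest total 1 CPM is 15.2 estimated counts. Filters, score and limma fits (3.58.1, R 4.3.3) are as in the report. Each format had its own fit on the dopamine score, the slope difference came from an interaction term over both formats, and the level difference from a fit on format alone. Adjustment ran over all 15547 genes. The slope fits of each format were tested beforehand on simulated slopes with independent noise for each gene. That test did not cover the slope difference or level fits, nor variation that genes share.

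The members, gene lists, tests and rule for naming genes were chosen with earlier results of these data known. Named are members called in both formats, the 10 largest called slopes per format, the 6 largest called level differences, the genes of the dopamine score, the 3 largest slopes per direction and format of the wider vesicle list, and the 5 nearest genes of 3 members. Other members are given by role, and a few genes that meet the rule are not reported here. Alternatives were median-of-ratios size factors, a pseudocount of 0.5 CPM, no or a stricter filter, other scores, left-out or added libraries, and covariates. Single dopamine genes other than Th, Slc6a3 and Slc18a2, and the oxidative phosphorylation and projection neuron covariates, were added after seeing the data.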

Additional observations from a re-analysis of the deposited data

How the results depend on the processing

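Size factors, a pseudocount of 0.5 CPM, other filters, a score standardised within each format, trend and robust moderation, a score without Slc6a3, Dlk1 alone, and leaving out relabelled libraries or those over 100 CPM of Slc17a7 kept each count of called members within 1.5 times its value, and turned no named slope or difference. The oxidative phosphorylation score and the cortical, GABA and oligodendrocyte scores as covariates did the same. Per alternative, 0 to 15 of up to 48 named slopes and differences kept their direction and lost their call. The groups hold no numbered replicates, and no paired analysis was possible because the libraries share no number across formats. Low values kept 6 members out of the tests, and the library total bears on the level comparison, where Sv2c and Unc13c lost their call.

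Each percentage in brackets is the share of all genes called in the same direction. Members rising in hexadecimal libraries (22) numbered 37 with Slc6a3 (49.8%), 37 with Nr4a2 (33.7%), 38 with Chrna6 (47.9%), 13 with Ddc (6.78%), 14 with Pitx3 (12.6%) and 13 with Slc10a4 alone (7.80%), 14 with the libraries under 10 CPM of Th added (14.6%), and 12 with the projection neuron score as a covariate (5.88%). Members falling there (13) numbered 22 with Th (34.0%) and 24 with En1 alone (36.6%), and 7 with the projection neuron score (10.1%). Members falling in decimal libraries (4) numbered 2 with Slc6a3 (5.01%), Chrna6 (4.84%) or Ddc (4.02%), 1 with Nr4a2 (3.59%) and 9 with En1 alone (9.38%), 34 with the libraries under 10 CPM of Th (27.9%), and 9 without the 2 libraries farthest from the score median in each format (8.45%). Slope differences (0 higher, 0 lower) numbered 8 lower with Th alone, 11 higher and 18 lower with Slc6a3, 7 and 10 with Nr4a2, 13 and 19 with Chrna6, 4 lower with En1, 1 lower with Slc18a2, and 16 higher and 4 lower with the libraries under 10 CPM of Th. Of all genes, 1.85% had a higher and 8.82% a lower called slope with Th alone, and 20.3% and 13.1% with Slc6a3. These shares were 7.32% and 4.84% with Nr4a2, 20.8% and 13.6% with Chrna6, and 2.26% and 4.40% with En1. They were 0.444% and 0.682% with Slc18a2, and 4.63% and 5.57% with the libraries under 10 CPM of Th. Level differences (13 higher, 17 lower) numbered 4 and 10 with the log2 library total as a covariate (5.65% and 12.0%), and 27 lower with the libraries under 10 CPM of Th (25.2%).

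Hexadecimal slopes that turned sign were those of Rims3 (-0.0015), Sv2c (-0.32) and Unc13a (-0.037) with Th alone, of Rims3 (-0.018), Sv2c (-0.32), Syt16 (-0.0037) and Unc13a (-0.041) with En1 alone, and of Sv2c (-0.18) and Unc13a (-0.025) with Pitx3 alone. With Slc6a3 alone they were those of Rab3b (-0.027), Stx1a (-0.045), Stxbp5l (0.038), Syt5 (-0.015), Unc13c (0.21) and Vamp2 (-0.034), with Chrna6 alone those of Stx1a (-0.0050), Unc13c (0.13) and Vamp2 (-0.0050), and with the projection neuron score that of Vamp1 (0.049). The 11 libraries under 10 CPM of Th add 1 library to the hexadecimal fit and 10 to the decimal fit. With them added, hexadecimal slopes of Stx1a (-0.44), Syt16 (-0.26), Syt5 (-0.029), Unc13a (-0.18) and Unc13c (0.068) turned, in a fit that gained 1 library. Decimal slopes that turned were those of Cplx1 (0.25), Rab3b (-0.13), Rims3 (-0.027), Stx1a (-0.94), Stx3 (-0.024), Stx7 (-0.043), Syt1 (-0.14) and Syt10 (-0.25). Those of Syt13 (-0.0035), Syt16 (-0.55), Syt17 (-0.075), Syt5 (-0.44), Unc13a (-0.39), Unc13c (0.52) and Vamp2 (-0.21) turned too. So did the level differences of Sv2c (0.022) and Unc13c (0.041). The cause was not tested.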

Other observations

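The 11 libraries under 10 CPM of Th give the release machinery of a tissue whose cortical or hippocampal markers are high, and several members lay there outside the range of the 140 libraries kept. Stx1a was 321 to 353 CPM, against at most 82.9 CPM in hexadecimal and 54.4 CPM in decimal libraries kept. Unc13a was 273 to 315 CPM, against at most 134 CPM and 131 CPM. Syn2 was 501 to 572 CPM, against at most 240 CPM and 167 CPM. Sv2c was 1.69 to 3.79 CPM and Unc13c 8.57 to 12.4 CPM, below the lowest library kept in either format (6.72 CPM and 26.9 CPM for Sv2c, 13.1 CPM and 31.4 CPM for Unc13c). Vamp1 was 89.2 to 122 CPM, also below both (217 CPM and 237 CPM). Syt4 was 345 to 404 CPM, inside the range of both formats.

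The library with an identifier of another form had 2828 CPM of Th and 538 CPM of Slc6a3. Its Sv2c was 14.8 CPM, its Vamp1 746 CPM, its Syt17 127 CPM and its Syt4 307 CPM.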
